A study of Mus musculus with 2 samples.

Results

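The 10 genes described here were the Notch receptors Notch1, Notch2 and Notch3, the ligands Jag1, Jag2, Dll1 and Dll4, and the target genes Hes1, Hey1 and Heyl, 10 of the 32287 features counted by scRNA-Seq. They were taken by symbol, each symbol matched 1 feature, and their UMIs (unique molecular identifiers, each counted as 1 captured transcript) were summed over the cells of each class and library. All 10 were detected in both libraries.

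Notch signaling passes between touching cells. A Jagged or Delta-like ligand on one cell binds a Notch receptor on its neighbor, proteases cut the receptor, and its released intracellular domain joins the DNA-binding protein RBPJ to switch on target genes of the Hes and Hey families. In skeletal muscle the pathway is known for keeping satellite cells, the muscle stem cells, from differentiating, and in vessels for arterial identity and for the coupling of endothelial and mural cells.

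The study asked what blocking secreted phosphoprotein 1 (SPP1, osteopontin) does to cells of denervated muscle. Male mice aged 10 to 16 weeks, of the C57BL/6J strain by the labels and carrying an enhanced GFP transgene driven by the S100B promoter (S100GFP-tg) by the study's methods, had both peroneal nerves crushed. Their tibialis anterior muscles then received 2 μg of either SPP1-neutralizing antibody (SPP1-nAb) or control goat anti-mouse IgG in 10 μL, at injury and every 2 days, and sorted cells were sequenced at 7 dpi (days post-injury) as 1 library per treatment. The sex, age, injury, transgene and collection day were shared by both libraries, mice were pooled in numbers that the sources used here do not give, and no untreated or uninjured muscle was analysed here. With 1 library per treatment, differences between the libraries have no replicate check, and all intervals below are 95% intervals that cover counting error only.

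The IgG library held 23385 cells after filtering, with a median of 3822 UMIs per cell, and the SPP1-nAb library held 24758, with a median of 4756. Of these cells, 84.5% and 86.1% fell into a class by their marker genes, and 163 barcodes occurred in both libraries before filtering. Names of classes mean marker-like. Both libraries were mostly mononuclear phagocytes (52.5% and 63.1% of cells), with satellite cells or myoblasts at 8.64% and 5.65% and endothelial cells at 1.66% and 1.32%. The labels call the samples S100GFP-positive, yet Schwann-like cells were 1.86% and 1.89% of cells, and the sorting protocol collected GFP-negative cells too. In its other libraries, of muscle without injections, the study also reported many GFP-positive clusters that were not Schwann cells. The share of cells that passed their gate with the exact minimum of markers was 7.21% in IgG phagocytes and 31.5% in IgG muscle cells, and it was 32.1% and 21.2% in cDC1 (type 1 dendritic cells) and 41.8% and 37.7% in cDC2 (type 2), so the borders of these 3 classes were soft. A level below is UMIs of the gene per 1000000 UMIs of the class (CPM), and levels are compared between classes and libraries within a gene, not between genes.

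Levels were ordered by cell class, and 9 of the 10 genes had the same highest class in both libraries. Endothelial cells held the highest level of Notch1, Jag2, Dll1, Dll4 and Hey1. Pericytes or smooth muscle cells, together the mural cells of vessels, held that of Notch3, Jag1 and Hes1, and muscle cells that of Heyl. Notch2 was the exception, with cDC1 highest in the IgG library and neutrophils in the SPP1-nAb library.

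**Figure D1:**
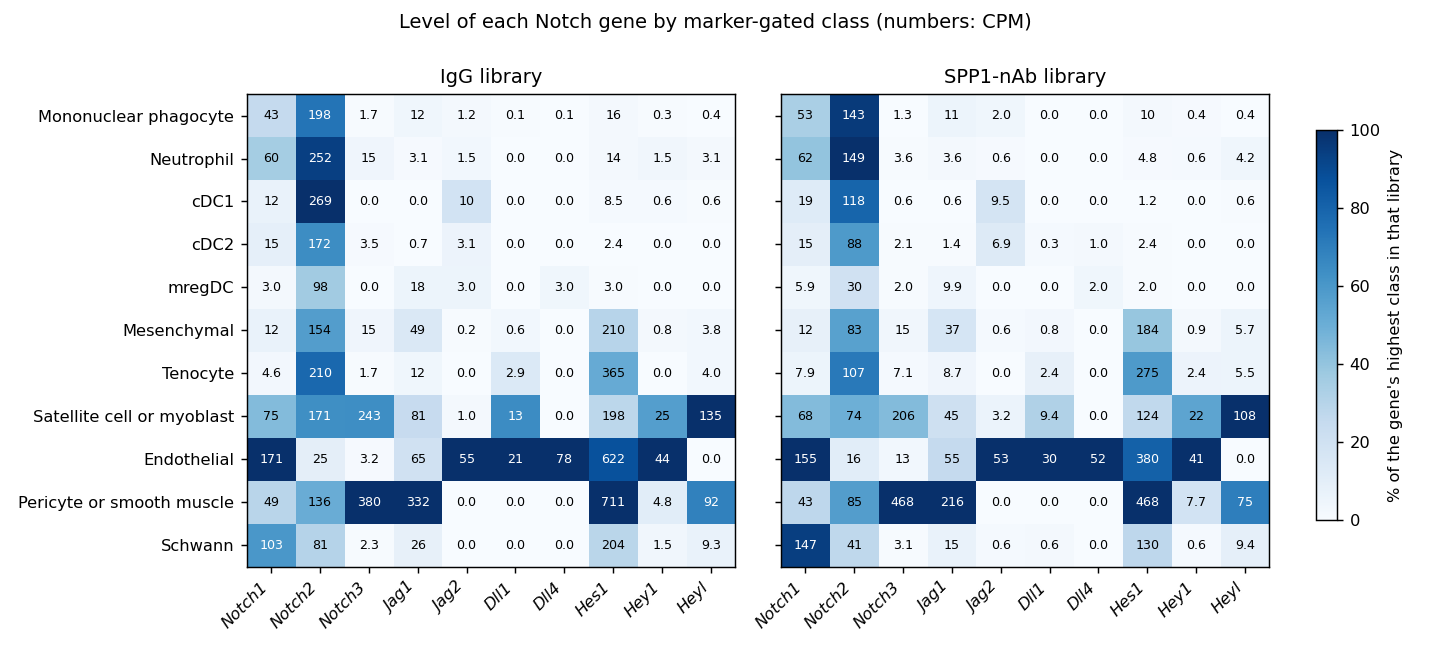
Level of the 10 genes (columns) in 11 marker-gated classes (rows) in the IgG and SPP1-nAb libraries; numbers are CPM and the color is the percent of the gene's highest class in that library. Endothelial cells are darkest for 5 genes in each library, and Notch2 is the gene spread over most rows.

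Notch1, a receptor known for artery and stem-cell roles, was measured at 171 (140.2 to 206) and 155 (127 to 188) CPM in endothelial cells of the IgG and SPP1-nAb libraries. Schwann cells followed with 103 (86.1 to 122) and 147 (128 to 167) CPM, and muscle cells with 75.3 (68.5 to 82.5) and 68.3 (61.8 to 75.3) CPM. The levels of these 3 classes did not overlap between neighbors in that order, although the SPP1-nAb Schwann and endothelial levels had overlapping intervals. Phagocytes held 43.2 and 52.7 CPM and mesenchymal cells 11.5 and 12.1 CPM. Among Schwann cells, those gated on Reln, Met, Sema5a and Fgfr2 had 114 (85.4 to 149) and 177 (146 to 211) CPM, and the other Schwann cells 96.5 (76.5 to 120.1) and 125 (103 to 149.6) CPM.

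Notch3, the receptor of vascular smooth muscle and pericytes, was highest in mural cells, at 379.5 (333 to 431) and 468 (411 to 530.5) CPM, followed by muscle cells, at 243 (230.4 to 255) and 206 (194 to 217) CPM. Both libraries of mural cells lay above both of muscle cells. In mesenchymal cells it was 14.8 and 15 CPM and in phagocytes 1.7 and 1.34 CPM. With every cell thinned to 2000 UMIs, 37.6% and 33.9% of the remaining muscle cells had a Notch3 UMI, against 0.315% and 0.334% of phagocytes, a class that should lack the gene. Without thinning the shares were 45% and 50.7% of muscle cells at median depths of 2346 and 3222 UMIs, and 0.579% and 0.678% of phagocytes at 4120.5 and 5236 UMIs. The deeper phagocytes thus gave fewer Notch3-positive cells.

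Notch2 was present in all 11 classes. In the IgG library it ran from 25.3 CPM (14.5 to 41.1) in endothelial cells to 269 CPM (244 to 295) in cDC1, and in the SPP1-nAb library from 16.3 CPM (8.11 to 29.1) in endothelial cells to 149 CPM (131 to 169) in neutrophils. The endothelial class lay below both libraries of every other class, and the 10 remaining classes overlapped their neighbors in order. Within phagocytes, the Lyve1 group (tissue-resident markers) had 245 and 175 CPM, the monocyte group 181 and 149 CPM and the Gpnmb group (phagocytic markers) 144 and 118 CPM in the IgG and SPP1-nAb libraries.

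The 250 bases before the annotated start of Notch2 and Notch3 are shown because Notch2 differed between the libraries in the most classes and Notch3 had a narrow class pattern. They are from RefSeq on build GRCm38.p6, Notch2 from chr3:98013288-98013537 on the plus strand and Notch3 from chr17:32166891-32167140 on the minus strand, both 5′ to 3′. Capitals mark GGGCGG, the GC box that Sp1-type factors bind, on either strand.
Notch2: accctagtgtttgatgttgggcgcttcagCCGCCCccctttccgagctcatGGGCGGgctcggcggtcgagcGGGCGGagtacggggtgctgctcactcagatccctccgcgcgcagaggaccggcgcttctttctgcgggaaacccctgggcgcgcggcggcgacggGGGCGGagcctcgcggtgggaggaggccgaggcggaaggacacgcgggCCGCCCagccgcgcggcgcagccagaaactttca
Notch3: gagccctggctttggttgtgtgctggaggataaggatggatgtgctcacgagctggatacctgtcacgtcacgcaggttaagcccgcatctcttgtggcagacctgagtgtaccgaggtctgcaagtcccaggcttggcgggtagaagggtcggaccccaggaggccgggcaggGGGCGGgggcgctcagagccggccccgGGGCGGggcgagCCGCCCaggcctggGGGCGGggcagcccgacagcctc
Notch2 held 5 GC boxes and Notch3 held 4, and 32.7% of all 32851 promoter windows of that length held at least 1. The core letters TGGGAA that RBPJ binds, searched on both strands, were in neither window nor in those of Notch1, Jag1, Jag2, Dll1 and Dll4, whereas 21.6% of all windows held them. That says only that these letters are not in these 250 bases. Hes1, Hey1 and Heyl had no entry in the RefSeq promoter table.

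Among ligands, Jag1 was led by mural cells at 332 (288 to 380.0) and 216 (178 to 260.5) CPM. Muscle cells had 80.5 (73.6 to 88) and 44.8 (39.6 to 50.5) CPM and endothelial cells 64.9 (46.5 to 88) and 54.7 (38.5 to 75.4) CPM, and these classes overlapped each other. Within endothelial cells, however, those with arterial markers had 312 (198 to 467) and 246 (146 to 388) CPM from 38 and 24 cells, whereas those with venous markers had 26 (7.08 to 66.5) and 46.5 (22.3 to 85.5) CPM. In phagocytes, which are low in Jag1 as a class at 11.7 and 11 CPM, the Gpnmb group had 29.5 (26.3 to 33) and 19.2 (17.7 to 20.8) CPM and the Lyve1 group 5.53 (4.4 to 6.87) and 4.62 (3.54 to 5.93) CPM, and these levels did not overlap.

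Of the 11 whole classes, endothelial cells held the highest level of each of the other ligands. Dll4, the Delta-like ligand of arteries and vessel tips, was at 77.5 (57.3 to 102) and 51.7 (36 to 71.9) CPM in endothelial cells, from 49 and 35 UMIs. Those with arterial markers had 108 and 27.3 CPM from 8 and 2 UMIs, and those with venous markers 19.5 and 13.9 CPM from 3 and 3. The other endothelial cells had 94 and 77.3 CPM, so in SPP1-nAb the arterial group was not the highest. No Dll4 UMI was found in mesenchymal, muscle, mural, Schwann, tenocyte, neutrophil or cDC1 cells of either library. The count of 0 in muscle cells had an interval that reached 0.606 CPM (IgG) and 0.619 CPM (SPP1-nAb). Plasmacytoid dendritic cells, too few to enter the ranking at 27 and 42 cells, had 55.2 (20.3 to 120.2) and 44.3 (19.1 to 87.3) CPM from 6 and 8 UMIs. Jag2 was at 55.4 (38.6 to 77) and 53.2 (37.3 to 73.7) CPM in endothelial cells, and next at 10.3 (6.02 to 16.5) and 9.47 (5.42 to 15.4) CPM in cDC1. Dll1 was at 20.6 (10.9 to 35.2) and 29.6 (18.1 to 45.6) CPM in endothelial cells from 13 and 20 UMIs and at 13.3 (10.6 to 16.5) and 9.4 (7.1 to 12.2) CPM in muscle cells. Both endothelial values of Dll1 lay above both muscle values, although the IgG intervals overlapped. Of the endothelial Dll1 UMIs, 2 of 13 (IgG) and 14 of 20 (SPP1-nAb) were in 54 and 53 cells with venous markers. Muscle cells gated on differentiation markers, a subset of the muscle class, had 71.4 and 30 CPM of Dll1.

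Each target was detected in both vessel and muscle cells, and each had a different highest class. Hes1, a transcriptional repressor that also answers to other pathways, was at 711 (647 to 780.4) and 468 (411 to 530.5) CPM in mural cells and 622 (562 to 686) and 379.8 (335 to 429) CPM in endothelial cells, and these classes overlapped across libraries. It was at 365 and 275 CPM in tenocytes, 209.7 and 184 CPM in mesenchymal cells, 204 and 129.7 CPM in Schwann cells, 198 and 124 CPM in muscle cells and 16 and 10.1 CPM in phagocytes. Heyl, a target known in satellite cells and mural cells, was at 135 (126 to 145) and 108 (99.7 to 117) CPM in muscle cells. In mural cells it was at 92.5 (70.2 to 119.6) and 75.4 (53.6 to 103) CPM. Both libraries of muscle cells lay above both of mural cells, although the SPP1-nAb intervals overlapped. Mural cells with pericyte markers alone had 185 and 88 CPM of Heyl, from 16 and 8 UMIs. No Heyl UMI was found in endothelial cells, where 3 UMIs would be 4.75 CPM (IgG) and 4.43 CPM (SPP1-nAb). Hey1, an arterial target, was at 44.3 (29.4 to 64) and 41.4 (27.5 to 59.8) CPM in endothelial cells and 25.2 (21.3 to 29.5) and 22.3 (18.7 to 26.4) CPM in muscle cells, with 4.78 and 7.73 CPM in mural cells. Endothelial cells with arterial markers had 135 (65 to 249) and 109 (47.2 to 215) CPM of Hey1 against 32.5 (10.5 to 75.7) and 4.65 (0.118 to 25.9) CPM in those with venous markers. Vessel cells thus carried Hey1 on the endothelial side and Heyl on the mural side.

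Within muscle cells, cells gated on Pax7-group markers (Pax7, Myf5, Fgfr4, Megf10, Chrdl2; 1551 and 985 cells) were compared with cells gated on differentiation markers (such as Myog and Mymk; 58 and 48 cells). Notch1, Notch2, Notch3, Jag1, Hey1 and Heyl were higher in the Pax7 cells of both libraries, and Dll1 in the differentiating cells. Notch3 was at 280.5 (265 to 296) and 235 (221 to 250.0) CPM in Pax7 cells of the IgG and SPP1-nAb libraries and at 4.6 (0.558 to 16.6) and 10.6 (3.88 to 23) CPM in differentiating cells. Heyl was at 149 (138 to 160.4) and 127 (117 to 138) CPM in Pax7 cells and 2.3 (0.0583 to 12.8) and 10.6 (3.88 to 23) CPM in differentiating cells. The log2 ratio of Pax7 over differentiating cells was 5.93 (4.07 to 8.98) and 4.47 (3.35 to 5.92) for Notch3, and 6.01 (3.53 to 11.32) and 3.59 (2.46 to 5.04) for Heyl. The differentiating levels rest on 1 to 6 UMIs each.

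Jag1 was at 90.6 (82.1 to 99.7) and 46.5 (40.2 to 53.4) CPM in Pax7 cells. In differentiating cells it had 1 UMI in the IgG library, a log2 ratio of 5.30 (2.81 to 10.61), and none in the SPP1-nAb library, where Pax7 cells were at least 8.79-fold higher against a floor of 3 UMIs. Hey1 was at 28.5 and 26.4 CPM in Pax7 cells, with no UMI and 4 UMIs in differentiating cells, at least 4.12-fold higher in the IgG library and at a log2 ratio of 1.91 (0.51 to 3.81) in the other. Notch1 was at 84.5 and 75.9 CPM in Pax7 cells and 27.6 and 38.8 CPM in differentiating cells, whereas Notch2 was at 187 and 79.5 CPM in Pax7 cells and 80.6 and 31.7 CPM in differentiating cells. Both receptors were detected in differentiating cells, where Notch3 was rare.

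Dll1 went the other way, at 8.26 (5.84 to 11.3) and 7.78 (5.36 to 10.9) CPM in Pax7 cells and 71.4 (48.5 to 101) and 30 (17.4 to 48) CPM in differentiating cells. At full depth the ligand was therefore higher in differentiating cells and the receptors, Jag1, Hey1 and Heyl in Pax7 cells. Hes1 was at 222 and 128 CPM in Pax7 cells and 85.2 and 102 CPM in differentiating cells and was not apart in both libraries. By the rule of a ratio past 1.5-fold in both libraries with an interval that leaves out 1, 6 of 8 members with at least 50 UMIs were higher in Pax7 cells, where 17.3% of all genes were, and 1 was higher in differentiating cells, where 10.8% were. Differentiating cells were deeper, with a median of 7298 and 9622 UMIs against 2430 and 3391. With every cell thinned to 2000 UMIs, 3 of the 7 calls (Notch3, Jag1 and Heyl) were left, and Dll1 fell under the minimum of 50 UMIs. At that depth 6 of 54 IgG differentiating cells and 17 of 1048 Pax7 cells had a Dll1 UMI. In SPP1-nAb it was 0 of 47 and 8 of 798, so the Dll1 difference was not seen in that library. The shares of all genes were not counted at that depth.

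**Figure D2:**
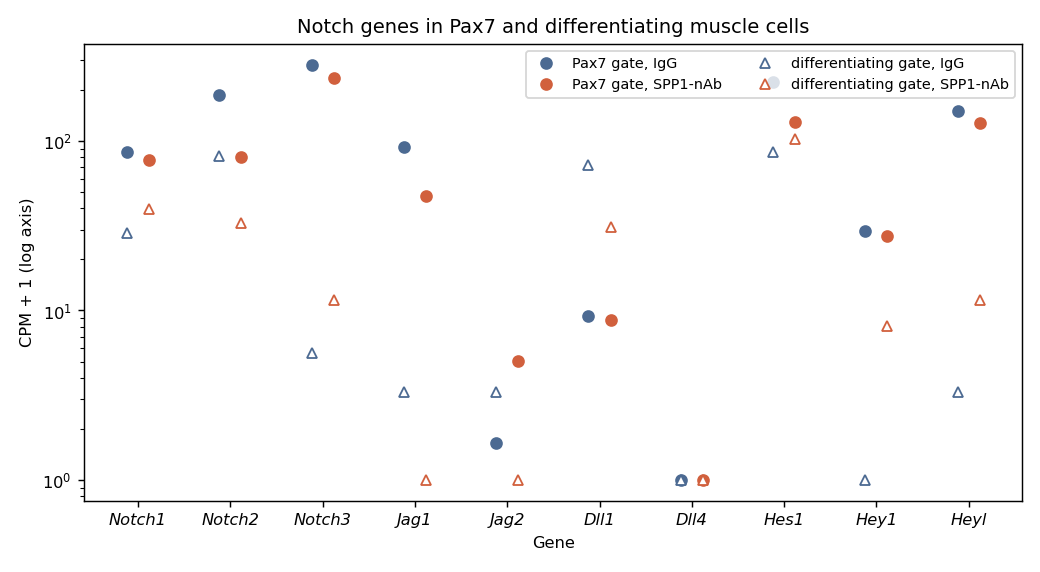
Level (CPM + 1, log axis) of the 10 genes in Pax7 (filled circles) and differentiating (open triangles) muscle cells of the IgG and SPP1-nAb libraries. For Notch3 and Heyl the circles sit far above the triangles, and for Dll1 the triangles sit above the circles.

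Pax7 cells with and without a Notch3 UMI held a Heyl UMI at shares whose intervals overlapped. At 2000 UMIs per cell, 24.0% (20.0 to 28.3) of the 434 IgG Pax7 cells with a Notch3 UMI also had a Heyl UMI, and of the 614 cells without one 25.9% (22.5 to 29.6) did. In the SPP1-nAb library the shares were 24.7% (19.9 to 30.1) of 295 and 23.5% (19.8 to 27.4) of 503. For Notch3 with Hes1, Jag1 and Hey1 the intervals of cells with and without Notch3 overlapped too, in both libraries. A Heyl UMI was in 30.4% (23.3 to 38.2) of IgG Pax7 cells with a Notch1 UMI and 24.2% (21.4 to 27.1) of those without. In SPP1-nAb these shares were 25.8% (18.5 to 34.3) and 23.6% (20.4 to 27.0), and the intervals overlapped in both libraries. At this depth a single UMI per cell is the usual count, so weak links would not be detectable.

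Between the libraries, 17 of the 45 pairs of a member and a class that had at least 50 UMIs were past 1.5-fold with an interval that leaves out 1, of which 16 were lower in SPP1-nAb and 1 was higher. Notch2 gave 8 of them, Hes1 5, Jag1 3 and Jag2 1. Among all pairs of a gene and a class, 10.2% were past the same rule in either direction. No pair of Notch1, Notch3, Dll1, Dll4, Hey1 or Heyl passed in a whole class. Under other processing, however, Heyl in mesenchymal cells and Notch1 in cDC1 and cDC2 passed as higher in SPP1-nAb. Heyl and Notch3 in phagocytes and Dll4 in endothelial cells passed there as lower. All classes come from the same 2 libraries, so the classes are not repeats of one another.

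Notch2 was past 1.5-fold lower in SPP1-nAb in 8 of the 9 classes tested, where 3.05% (Schwann cells) to 10.8% (phagocytes) of all genes were. In muscle cells the IgG level was 171 CPM and the SPP1-nAb level 73.7 CPM, a log2 ratio of -1.21 (-1.38 to -1.05). In cDC1 it went from 269 to 118 CPM, at -1.18 (-1.43 to -0.94), and in Schwann cells from 81.1 to 40.5 CPM, at -1 (-1.47 to -0.54). The muscle levels of the libraries differed by more than 2-fold, and neither interval reached the other level.

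Tenocytes stood at 210.0 and 107 CPM with a log2 ratio of -0.98 (-1.27 to -0.69), cDC2 at 172 and 87.7 CPM with -0.97 (-1.20 to -0.75), and mesenchymal cells at 154 and 82.7 CPM with -0.89 (-1.02 to -0.76). Neutrophils stood at 252 and 149 CPM with -0.76 (-1.05 to -0.47), and mural cells at 136 and 85 CPM with -0.67 (-1.23 to -0.13), a call that was lost with 1 marker more or fewer in the gate. Phagocytes, the class with the most UMIs, moved least of the 9, from 198 to 143 CPM, at -0.47 (-0.51 to -0.43), which is under 1.5-fold. In muscle cells with Pax7 markers the log2 ratio was -1.23 (-1.42 to -1.05) and in differentiating cells -1.35 (-2.25 to -0.49).

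Set beside all genes with at least 50 UMIs in the same class, 0.343% of genes had a lower ratio than Notch2 in cDC1, 0.658% in Schwann cells, 0.772% in muscle cells, 1.12% in tenocytes, 1.36% in cDC2, 3.37% in mural cells, 3.47% in neutrophils, 3.99% in mesenchymal cells and 15.9% in phagocytes. Notch2 spans 136878 bases, and among genes over 100 kb the median log2 ratio was -0.15 in phagocytes and -0.09 in muscle cells, where Notch2 had 20% and 1.43% of such genes below it. In the other classes tested for Notch2, the median of genes over 100 kb ran from -0.07 in mesenchymal cells to 0.04 in tenocytes. The members were chosen with earlier results of these data known, so these positions are a description.

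**Figure D3:**
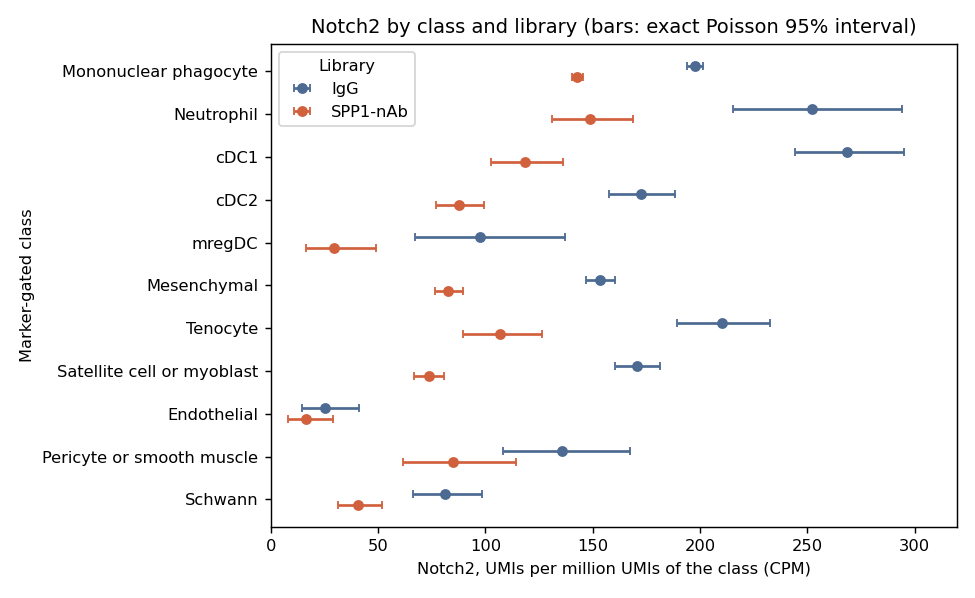
Notch2 level (CPM, points) in each of 11 classes in the IgG and SPP1-nAb libraries, with exact Poisson 95% intervals (bars). The SPP1-nAb point lies to the left of the IgG point in each class, and the intervals overlap in the endothelial and mural classes.

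Hes1 was past 1.5-fold lower in 5 of the 7 classes tested, where 3.05% (Schwann cells) to 10.8% (phagocytes) of all genes were. In endothelial cells it was at 622 and 379.8 CPM in IgG and SPP1-nAb, a log2 ratio of -0.71 (-0.94 to -0.48). In muscle cells it was at 198 and 124 CPM, with -0.68 (-0.81 to -0.54), in Schwann cells at 204 and 129.7 CPM, with -0.65 (-0.92 to -0.39), and in mural cells at 711 and 468 CPM, with -0.60 (-0.84 to -0.38). The mural and Schwann calls were lost with 1 marker more in the gate, and the muscle and endothelial calls with cells weighted equally. Mesenchymal cells and tenocytes were within 1.5-fold, at -0.19 and -0.41. Within endothelial cells, the ratio was -1.75 (-2.76 to -0.83) with arterial markers, on 44 and 13 UMIs, and -0.65 (-1.18 to -0.11) with venous markers. The other endothelial cells, with 284 and 186 UMIs, were within 1.5-fold at -0.55 (-0.83 to -0.28). Within Schwann cells, the log2 ratio of Hes1 was -0.18 (-0.72 to 0.36) in the Reln group and -0.76 (-1.08 to -0.44) in the others. Within muscle cells it was -0.80 (-0.95 to -0.65) in Pax7 cells and 0.26 (-0.36 to 0.90) in differentiating cells. The other muscle cells were at -0.21 (-0.55 to 0.13).

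In phagocytes Hes1 was at 16 and 10.1 CPM, with -0.67 (-0.81 to -0.54), but the makeup of this class moved too: the Gpnmb group was 7.18% of all cells in IgG and 17.9% in SPP1-nAb, and the Lyve1 group 15.3% and 10.6%. Within the groups the log2 ratio of Hes1 was -0.58 in Lyve1, -0.26 in Gpnmb, -0.22 in monocyte and -0.41 in other phagocytes, none past 1.5-fold. The call over all phagocytes was also lost with cells thinned to 2000 UMIs. The immediate-early gene Fos, which tissue dissociation is known to induce, was also lower in SPP1-nAb, at 2360 and 1225 CPM in phagocytes. It was at 4185 and 2237 CPM in muscle cells and 1903 and 1456 CPM in endothelial cells. Schwann cells had 1963 and 1848 CPM of Fos and mural cells 3291 and 3162 CPM, a smaller difference. The part of this difference in the Hes1 and Notch2 levels was not tested.

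Jag1 was lower in SPP1-nAb in muscle cells, from 80.5 to 44.8 CPM at a log2 ratio of -0.85 (-1.07 to -0.63), in mural cells, from 332 to 216 CPM at -0.62 (-0.96 to -0.28), and in Schwann cells, from 26.3 to 15 CPM at -0.81 (-1.63 to -0.02). The Schwann value rests on 34 and 24 UMIs, its interval nearly reaches 0, and the muscle and Schwann calls were lost with cells weighted equally. The mural call was lost with 1 marker more in the gate and with cells thinned to 2000 UMIs. Mural cells with smooth muscle markers were within 1.5-fold, from 325 to 247 CPM at -0.40 (-0.77 to -0.03). Those with pericyte markers went from 370 to 99 CPM, on 32 and 9 UMIs, too few to be called. Mural cells as a class also held fewer mesenchymal marker UMIs in SPP1-nAb, with summed levels of 1753 CPM (IgG) against 1013 CPM. These levels were 707 and 805 CPM in the smooth muscle group and 983 and 1418 CPM in the pericyte group. Their part was not tested. In phagocytes Jag1 was at 11.7 and 11 CPM and not apart. Within its groups, Gpnmb went from 29.5 to 19.2 CPM at -0.62 (-0.82 to -0.42), past 1.5-fold. The monocyte group was at -0.41 (-0.79 to -0.04), Lyve1 at -0.26 and other phagocytes at -0.22, all within 1.5-fold. The Gpnmb group, highest of these in Jag1, was 7.18% of all cells in IgG and 17.9% in SPP1-nAb. The part of that shift in the class level was not tested. Jag2 in phagocytes was the 1 pair past 1.5-fold higher in SPP1-nAb, at 1.21 and 2.01 CPM and a log2 ratio of 0.73 (0.32 to 1.16). These are levels near the floor, from 66 and 176 UMIs in 12272 and 15632 cells, and the call was lost with Leiden clusters in place of gates and with cells thinned to 2000 UMIs.

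Notch1 passed in no whole class. Schwann cells went from 103 to 147 CPM at a log2 ratio of 0.51 (0.20 to 0.83) and phagocytes from 43.2 to 52.7 CPM at 0.29 (0.22 to 0.36), both with intervals above 0. The Reln-group Schwann cells, at 0.63 (0.15 to 1.13), and the Gpnmb phagocytes, at 0.62 (0.43 to 0.82), passed 1.5-fold on their own. The other phagocyte groups were above 0 too, monocyte at 0.56 (0.38 to 0.73), Lyve1 at 0.39 and the rest at 0.36. Other Schwann cells were at 0.37 (-0.05 to 0.80). The share of all genes past the rule was not counted within such groups. Notch3 was at 0.30 (0.04 to 0.57) in mural cells and -0.24 (-0.35 to -0.13) in muscle cells, and Heyl at -0.32 (-0.47 to -0.17) in muscle cells. Notch3 and Heyl thus differed by less than 1.5-fold in the class where each was highest.

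Counts of members past the rule stand against those of all genes in the same class, in either direction. Past 1.5-fold were 2 of 7 members tested in phagocytes, where 14% of genes were, 1 of 6 in mesenchymal cells, where 13.2% were, and 3 of 8 in muscle cells, where 9.98% were. In Schwann cells it was 3 of 4 members beside 5.35% of genes, in mural cells 3 of 6 beside 7.17%, and in endothelial cells 1 of 6 beside 7.94%. In neutrophils, cDC1, cDC2 and tenocytes it was 1 of 2 members each, beside 9.99%, 8.53%, 8.69% and 8.29%. In the classes with at least 4 members tested, their median log2 ratio was -0.73 in Schwann cells, -0.45 in mural cells, -0.41 in muscle cells, -0.19 in endothelial cells and -0.09 in both phagocytes and mesenchymal cells, beside medians over all genes of -0.0041, 0.01, 0.03, 0.01, -0.06 and -0.02 in that order. In mregDC (mature regulatory dendritic cells), with 11.1% of genes past the rule, no member reached 50 UMIs.

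**Figure D4:**
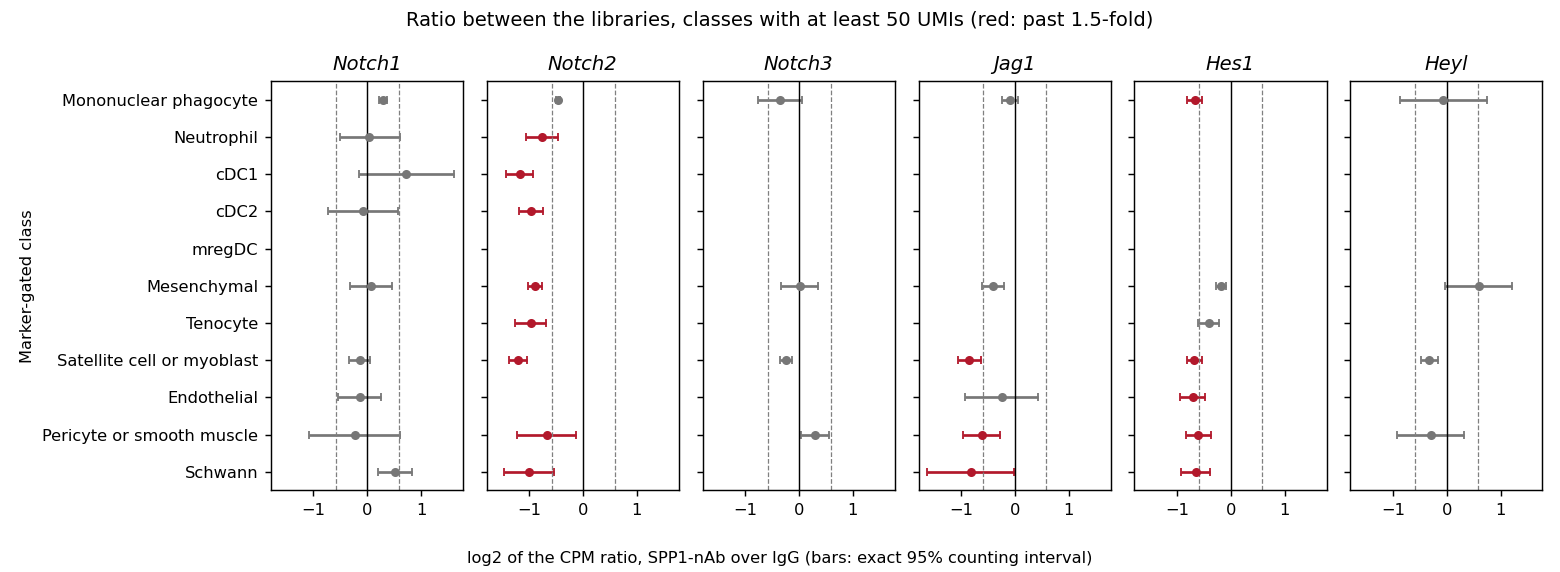
Log2 ratio of CPM, SPP1-nAb over IgG, of 6 of the genes in each class with at least 50 UMIs over both libraries; bars are exact 95% counting intervals, dashed lines are 1.5-fold and red points passed the rule. All Notch2 and Hes1 points lie left of 0, and those of Notch1 and Notch3 lie on both sides.

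The other genes of the pathway, a list of 48, gave 281 pairs with at least 50 UMIs, of which 10 were higher and 11 lower in SPP1-nAb. These are 7.47% of the pairs, where 10.2% of all pairs of a gene and a class passed, so the list held no more calls than genes at large and the genes named next are a description. Rbpj, the DNA-binding partner of the receptors, was at 1174 (1165 to 1183) and 846 (840.1 to 852) CPM in phagocytes, the highest class in both libraries, and at 263 and 228 CPM in muscle cells and 114 and 103 CPM in endothelial cells, and it passed in no class. Notch4, the endothelial receptor, was at 34.8 (21.8 to 52.7) and 36.9 (23.9 to 54.5) CPM in endothelial cells from 22 and 25 UMIs, and it was lower in SPP1-nAb phagocytes at 0.696 and 0.343 CPM, near the floor.

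Of the other targets, 2 of 29 pairs were higher and 2 lower. Nrarp, a target that feeds back on the receptor, was lower in endothelial cells, from 83.8 to 39.9 CPM at -1.07 (-1.80 to -0.38), and in mural cells, from 104 to 59.9 CPM at -0.79 (-1.46 to -0.15). Hes1 was lower in both classes as well, with calls that were lost under some other processing. Single Nrarp ratios were not rerun there. Hey1 in endothelial cells, at -0.10 (-0.91 to 0.71), and Heyl in mural cells, at -0.30 (-0.92 to 0.32), were not apart. Myc, which many pathways drive, was higher in tenocytes, from 85.3 to 185 CPM, and Dtx2 in muscle cells, from 5.92 to 9.4 CPM.

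Of the nuclear complex, 1 of 95 pairs was higher and 1 lower: the coactivator Maml2 in mural cells, from 113 to 189 CPM, and the acetyltransferase Kat2b in neutrophils, from 88.3 to 45.5 CPM. Of the receptor proteases, 2 of 83 were higher (Aph1c and Psenen, subunits of gamma-secretase, in mregDC) and 3 lower (Furin and Adam10 in cDC1 and Aph1b in muscle cells). Adam10, the protease of the first cut after ligand binding, went from 56.5 to 30.8 CPM in cDC1.

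Of ubiquitin ligases and receptor inhibitors, 3 of 49 pairs were higher and none was lower: Numb in neutrophils, from 146 to 230.3 CPM, Mib1 in cDC1 and Numbl in muscle cells. Of the glycosyltransferases that tune receptor binding, 2 of 21 were higher (Lfng in neutrophils and Pofut1 in Schwann cells) and 1 lower (Poglut1 in mregDC). Of other receptors and ligands, all 4 pairs tested were lower: Notch4 and Dner in phagocytes, and Dlk1 and Dner in mesenchymal cells. Dlk1, a ligand-like inhibitor, went from 46.4 to 9.81 CPM.

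Between Pax7 and differentiating muscle cells, 9 of the 32 pathway genes with at least 50 UMIs were higher in Pax7 cells in both libraries (Adam10, Adam17, Maml2, Spen, Kat2b, Ep300, Dtx3, Dtx4 and Myc). Hes6, known to promote differentiation, and Neurl1a, a ubiquitin ligase for ligands, were higher in differentiating cells. These 2 counts stand beside the 17.3% and 10.8% of all genes that were higher in Pax7 and in differentiating cells. Hes6 had 55 UMIs in 1551 Pax7 cells and 64 in 58 differentiating cells of the IgG library, and 75 in 985 and 48 in 48 of the SPP1-nAb library. Hes6 and Dll1 were thus, at full depth, higher where the receptors and Heyl were lower.

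Over 24 profiles, the 12 classes with pDC in both libraries, the genes most like each member by Pearson correlation of log2(CPM + 1) were, for Notch3, Acta2 (r = 0.91), Lin7a (0.89) and Rbm24 (0.88), Acta2 being a mural gate marker. They were Thsd4 (0.91), Sync (0.90) and Hoxc4 (0.90) for Heyl, Cavin3 (0.97), Plpp3 (0.96) and Epn2 (0.96) for Hes1, Cavin2 (0.94), Pgm5 (0.91) and Cdh13 (0.91) for Hey1, and Rras (0.89) and C2cd2 (0.88) for Jag1. For Dll4 they were Lrch1 (0.89), Rnf220 (0.89) and Kdr (0.88), Kdr being an endothelial gate marker. For Jag2 they were Cmtm8 (0.86), Ctnnbip1 (0.85) and Icam2 (0.83), and for Dll1 Sema6a (0.86), Palmd (0.86) and Sncaip (0.84). Notch1 had Dync1li1 (0.84), Bicra (0.83) and Ppp6r3 (0.82), and Notch2 the weakest matches, with Bcl6 (0.77), Tiparp (0.63) and Tomm6 (0.62). Among the members themselves, Notch3 and Heyl (0.84) and Jag1 and Hes1 (0.82) were most alike. The profiles share 2 libraries and differ in depth, so these values describe class patterns.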

How the data were processed

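The samples were 1 scRNA-Seq library of muscle cells per treatment (IgG, SPP1-nAb; n = 1 each), grouped by the labels' treatment. The deposited counts are the authors' filtered gene-by-cell UMI counts. By the submitters' processing notes they were made with Cell Ranger 8.0.0, whereas the file headers name version 9.0.1, on a mouse GRCm39 reference with EGFP added, and by the study's methods they precede the authors' correction for free RNA and removal of doublets. The libraries held 97607674 (IgG) and 127719916 (SPP1-nAb) UMIs in 23779 and 25069 barcodes. Free RNA therefore remains in the counts and can raise low levels in any class.

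Barcodes were kept above 200 detected genes and below a mitochondrial share of 10%. Each cell was assigned to the class with the largest share of its markers with a UMI, above a minimum per class, and cells that passed the gates of 2 lineages, which include doublets, were left out with ungated cells. The minimum was 2 of 12 markers for muscle cells and 5 of 12 for phagocytes, for example, and minima were set after marker histograms had been seen. No member is a gate marker. No doublet caller was used for the values in the text. UMIs were summed per class and library, scaled to CPM and given exact Poisson intervals, shares exact Clopper-Pearson intervals, and ratios exact intervals from the binomial share of the counts (95%). UMIs of PCR-amplified libraries are treated as molecules, and intervals cover counting error only. A pair was past the rule with at least 50 UMIs over both libraries, a ratio past 1.5 and an interval that leaves out 1. No test between treatments was possible with 1 library each. Classes needed 50 cells per library to be ranked and subclasses 20. Thinning drew 2000 UMIs per cell without replacement and left out shallower cells.

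The genes named were the 10 members, genes of a 48-gene pathway list past the rule with Rbpj and Notch4 in any case, and the 3 genes most like each member among those with at least 500 UMIs, without mitochondrial, ribosomal and predicted genes; 1 of those for Jag1 is not reported here. Fos and the pathway genes named for muscle differentiation were added after their values were seen. The members, lists and rules were chosen with earlier results of these data known. The calling step was run on simulated Poisson counts drawn from the muscle class means with set folds. Those counts held counting error only, so variation between mice was not covered. Alternatives covered the gates, Leiden clusters, doublet scores, filters, thinning, weighting, free RNA, centering and thresholds. Python 3.11.15, NumPy 2.4.6, pandas 2.3.3, SciPy 1.17.1, scikit-learn 1.9.0, igraph 0.11.9, leidenalg 0.10.2 and matplotlib 3.10.9 were used. Promoter sequences are RefSeq's (GRCm38.p6), with 7 of 10 members matched.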

Additional observations from a re-analysis of the deposited data

How the results depend on the processing

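The count of members past 1.5-fold between the libraries was 17 of 45 pairs, beside 10.2% of all pairs of a gene and a class. It ran from 13 to 21 under 11 of the 13 alternatives, and was 10 of 31 pairs with cells thinned to 2000 UMIs and 3 of 45 with a ratio past 2, where fewer UMIs or a wider threshold leave fewer pairs by construction. The share of all pairs was counted at the main setting only. Whether members still passed more often than genes at large under an alternative was therefore not tested. The pathway list gave 21 of 281 pairs, from 14 to 27 under the same 11, 5 of 174 when thinned and 9 past 2-fold. The same highest class in both libraries was found for 9 members and for 8 or 9 under each of 9 alternatives, Hes1 joining Notch2 as the exception with 1 marker fewer in the gate or with cells weighted equally. The 7 members apart between Pax7 and differentiating muscle cells were also 7 with 1 marker more in the subclass gates, with the highest 10% of doublet scores removed or with estimated free RNA removed, and 3 when thinned (alternatives chosen after seeing the data). No pair past the rule turned its direction under the 10 alternatives run for single ratios. Notch2 in mural cells fell short of the rule with 1 marker more or fewer, with Leiden clusters and under 5% mitochondrial UMIs, as did Hes1 in mural cells with 1 marker more, Leiden clusters, doublet scores and under 5% mitochondrial UMIs. Jag1 in mural cells fell short with 1 marker more and when thinned, Jag2 in phagocytes with Leiden clusters and when thinned, and Hes1 in phagocytes when thinned. Jag1 in Schwann cells fell short with 1 marker more, doublet scores removed and cells weighted equally, and Hes1 in Schwann cells with 1 marker more or fewer and when thinned. Jag1 and Hes1 in muscle cells fell short with cells weighted equally, as did Hes1 in endothelial cells, also when thinned. Some pairs passed under an alternative alone. Heyl in mesenchymal cells was higher in SPP1-nAb with 1 marker more, Leiden clusters and free RNA removed. Notch1 in cDC1 and cDC2 was higher with Leiden clusters. Notch3 in phagocytes was lower with Leiden clusters and free RNA removed, and Heyl in phagocytes with Leiden clusters. Dll4 in endothelial cells was lower with Leiden clusters and under 5% mitochondrial UMIs, and Notch2 in mregDC with 1 marker fewer and Leiden clusters. Where no construction is named, the cause was not tested. Depth limits Jag2, Dll1, Dll4 and Hey1, which had at least 50 UMIs in 1 or 2 classes each. No paired analysis was possible because each treatment has 1 library.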
